A study of Mus musculus with 18 samples.

Results

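The 10 genes described here carry the TGF-beta signal from the ligand to the nucleus: Tgfb1, Tgfbr1, Tgfbr2, Tgfbr3, Smad2, Smad3, Smad4, Smad7, Ski and Skil. They were chosen by name as the ligand, its receptors, the Smad proteins and the Smad-binding corepressors. All 10 were found among the 24421 gene symbols of the count table, and all 10 were among the 12808 genes that passed the expression filter of a mean of at least 1 CPM (counts scaled to the size of the library). They were measured by RNA sequencing of hematopoietic stem cells (HSCs) sorted from the bone marrow of Hoxb5-tri-mCherry mice (C57BL/6J background), a reporter line in which mCherry follows the gene Hoxb5. The 18 libraries form 6 groups of 3 libraries each. Young mice (2 to 3 months) and aged mice (23 to 25 months) each gave long-term HSCs (LT-HSCs, the reporter-positive cells of the HSC gate), short-term HSCs (ST-HSCs, its reporter-negative cells) and bulk-HSCs (the whole surface-marker-defined HSC gate). Bulk-HSCs therefore hold LT-HSCs and ST-HSCs, and every mouse carried the reporter allele, with no treatment named in the labels. The labels do not say which libraries came from the same animals, so the p-values measure the spread between these libraries, which may be partly technical.

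TGF-beta binds a pair of cell-surface kinases, the type II receptor Tgfbr2 and the type I receptor Tgfbr1, and the coreceptor Tgfbr3 (betaglycan) presents ligand to them. The activated type I receptor phosphorylates Smad2 and Smad3, which join Smad4 and enter the nucleus, where Ski and Skil (SnoN) repress Smad target genes and where the inhibitory Smad7 gene is itself induced. In bone marrow, TGF-beta is known as a signal that holds HSCs in quiescence.

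The libraries held between 16495048 and 22973844 counts. The number of genes detected, meaning those with any count, ran from 11548 to 13876 in young and from 13526 to 14133 in aged libraries, so most young libraries detected fewer. Hoxb5 ranged from 8.20 to 40.3 CPM in young LT-HSCs and from 18.4 to 26.0 CPM in aged LT-HSCs, against at most 4.56 CPM in any ST-HSC library. In bulk-HSCs it ranged from 1.7 to 5.6 CPM in young and from 6.2 to 14.1 CPM in aged libraries. The authors report that ST-HSCs become fewer relative to LT-HSCs within bulk-HSCs with age. An age difference in bulk-HSCs may hold a part of this changed mix, which was not tested. Of the other stem cell markers, Kit (1080 to 1570 CPM), Hlf (834 to 1950 CPM) and Mecom (210.0 to 358 CPM) were high in all 18 libraries. Procr (78.1 to 157 CPM), Ly6a (24.7 to 152 CPM) and Slamf1 (13.9 to 75.7 CPM) were lower. With Hoxb5 these 7 genes summed to 2780 to 3890 CPM in young and 2540 to 3130 CPM in aged libraries. Markers of other cells differed by list. The summed level of 4 lymphocyte genes reached at most 1.55 CPM, that of 6 neutrophil genes at most 4.90 CPM in young and 18.2 CPM in aged libraries, and that of 4 erythroid genes at most 21.4 and 14.3 CPM. The 6 macrophage and monocyte genes summed to 124 to 175 CPM in young and 99.7 to 163 CPM in aged libraries, most of it Lyz2 (86.3 to 149 CPM). The 5 stromal genes summed to 7.19 to 31.8 CPM in young and 11.8 to 37.2 CPM in aged libraries: Pdgfrb (2.38 to 27.7 CPM) was detected in all 18 and Col1a2 reached 12.1 CPM, while Col1a1 was listed at 0 in all 18, as were Cdh5 (endothelium), Cd3e (T cells) and Mpo. Summed megakaryocyte and platelet genes spanned 67.5 to 153 CPM in young and 104 to 175 CPM in aged libraries, most of it Itga2b, and summed endothelial genes 68.3 to 118 CPM in young and 99.5 to 149 CPM in aged libraries. Cd34, Flt3 and Cd48, which mark cells outside the HSC gate, summed to less in aged than in young libraries without overlap in each fraction: 67.8 to 75.2 against 114 to 177 CPM in LT-HSCs, 129 to 149 against 250 to 339 CPM in ST-HSCs, and 63.7 to 101 against 164 to 215 CPM in bulk-HSCs. These differences stand beside every comparison of the ages below. The part of these lists in the results was not tested. In sorted populations, less RNA per cell and fewer cells of a type cannot be told apart.

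On the mouse genome (GRCm38, the build named mm10 by the authors), Tgfb1 lies on chromosome 7 (25687002 to 25705077), Tgfbr1 on chromosome 4 (47353222 to 47414931), Tgfbr2 on chromosome 9 (116084293 to 116175360) and Tgfbr3 on chromosome 5 (107106570 to 107289629). Smad3 lies on chromosome 9 (63646767 to 63757994). Ski lies on chromosome 4 (155154075 to 155222592) and Skil on chromosome 3 (31095058 to 31122577). In the GENCODE annotation no member shares exonic sequence with another counted gene. Tgfbr3 shares 297 exonic bases with the predicted gene Gm43422 on the same strand, which the count table does not list.

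RefSeq promoters (GRCm38.p6, 250 bases before to 50 bases after the start) were matched for 5 members, Tgfb1, Tgfbr1, Tgfbr2, Smad3 and Ski, in 6 windows. Those of the ligand and of its pair of signalling receptors are shown, because Tgfb1 and Tgfbr1 were both lower in every young LT-HSC library than in every young ST-HSC library, and Tgfbr1 and Tgfbr2 were both higher in every aged than in every young LT-HSC library. In these comparisons 12.1% and 16.1% of all genes tested showed no overlap in either direction. The main test (edgeR) called none of these differences. Capitals mark the letters CAGAC, the short element that Smad3 and Smad4 recognise, read on either strand.
Tgfb1, chr7:25686752-25687051, plus strand: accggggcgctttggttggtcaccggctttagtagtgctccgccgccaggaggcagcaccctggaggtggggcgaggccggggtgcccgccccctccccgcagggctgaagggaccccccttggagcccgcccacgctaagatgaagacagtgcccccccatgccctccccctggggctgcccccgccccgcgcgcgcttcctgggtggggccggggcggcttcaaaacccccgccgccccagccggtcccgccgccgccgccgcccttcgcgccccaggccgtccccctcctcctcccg
Tgfbr1, chr4:47352972-47353271, plus strand: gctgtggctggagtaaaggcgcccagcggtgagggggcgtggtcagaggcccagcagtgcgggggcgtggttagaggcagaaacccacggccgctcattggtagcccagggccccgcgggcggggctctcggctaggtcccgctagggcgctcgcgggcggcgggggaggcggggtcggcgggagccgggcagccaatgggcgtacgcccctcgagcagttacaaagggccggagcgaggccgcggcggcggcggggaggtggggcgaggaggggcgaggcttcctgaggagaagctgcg
Tgfbr2, chr9:116175314-116175613, minus strand: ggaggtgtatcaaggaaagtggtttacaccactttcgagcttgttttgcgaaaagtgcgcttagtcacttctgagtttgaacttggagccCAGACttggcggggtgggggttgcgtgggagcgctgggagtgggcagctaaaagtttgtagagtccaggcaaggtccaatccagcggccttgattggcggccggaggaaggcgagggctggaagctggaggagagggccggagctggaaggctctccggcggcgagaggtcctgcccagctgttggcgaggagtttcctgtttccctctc
The Tgfb1 and Tgfbr1 windows shown are 77.0% and 74.7% G and C and hold no match, while the Tgfbr2 window is 59.0% G and C and holds 1 match. A further start of Tgfbr1 (chr4:47385966-47386265) also holds 1 match, and the Smad3 and Ski windows hold none. The 5 letters occur in 49.6% of all 32851 promoter windows, so a match here is common. The palindrome GTCTAGAC, which shares the letters AGAC with that element on each strand, was in none of the 6 windows and in 0.213% of all windows.

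Levels of different genes can be compared only per length, so CPM was divided by the kilobases of exon of each gene. Averaged over the 18 libraries, Tgfbr3 (37.7 CPM per kb), Smad3 (35.8), Smad4 (30.4), Ski (26.1) and Tgfb1 (23.7) formed the upper part of this order. Tgfbr2 (11.5), Smad7 (10.7), Tgfbr1 (9.30) and Smad2 (8.92) came next, and Skil was lowest at 3.28 CPM per kb. HSCs of every group thus held more transcript per kb of the coreceptor than of either signalling receptor, and more Smad3 than Smad2. In counts, the depth behind these values ran from 167 counts (Skil in a young bulk-HSC library) to 7105 counts (Tgfbr3 in an aged bulk-HSC library).

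**Figure D1:**
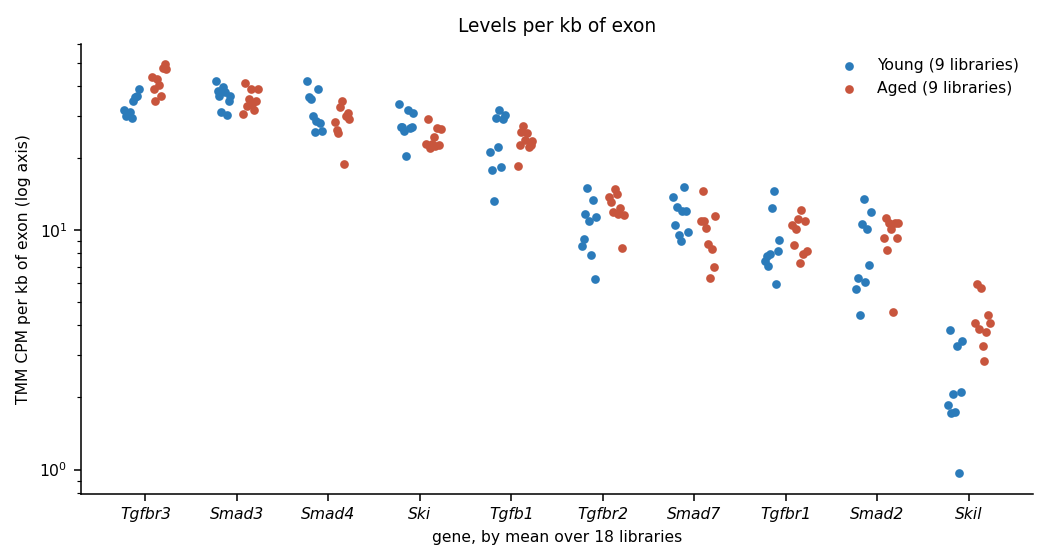
Levels of the 10 genes in TMM-normalized CPM per kb of exon (log axis), 1 point per library, young (9 libraries) and aged (9 libraries), ordered by the mean over all 18. Tgfbr3 was highest with a mean of 37.7 and Skil lowest with a mean of 3.28 CPM per kb. With the fractions pooled, the ages overlap in both. Tgfbr3 spans 29.5 to 38.8 in young and 34.7 to 49.3 in aged libraries, and Skil 0.964 to 3.81 and 2.85 to 5.96.

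The first question was whether the level of each member differs between young and aged HSCs. Averaged over the 3 fractions, 2 of the 10 members rose with age, Tgfbr3 and Skil, and none fell (edgeR quasi-likelihood test, adjusted p under 0.05). Over all genes tested, 6.75% were called in this comparison, 4.34% being higher in aged cells. The median log2 fold change of the 10 members was 0.08, against 0.04 over all genes tested. At an unadjusted p under 0.05 the same count of 2 members stood against 19.7% of all genes. This average treats the fractions as independent samples, although bulk-HSCs contain the other fractions.

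The coreceptor Tgfbr3 was the steadiest of the age differences. In young LT-HSCs it measured 196, 199 and 208 CPM, and in aged LT-HSCs 227, 254 and 286 CPM. In ST-HSCs the young libraries held 193, 204 and 227 CPM and the aged libraries 237, 264 and 279.7 CPM. In bulk-HSCs the values were 235, 237 and 254 CPM when young and 310.0, 313 and 323 CPM when aged. Every aged library lay above every young library of its own fraction, a pattern that 1.94% of all genes tested shared. The log2 fold change over the 3 fractions was 0.35 ± 0.061 (SE), a factor of 1.28 (adjusted p = 0.00153). Within single fractions the log2 fold changes were 0.35 ± 0.11 for LT-HSCs, 0.33 ± 0.11 for ST-HSCs and 0.38 ± 0.11 for bulk-HSCs, of like size, and none passed the adjusted threshold alone (adjusted p = 0.223, 0.201 and 0.0766). Between libraries of a group Tgfbr3 varied little: its within-group SD of log2(CPM + 1) was 0.10, at percentile 1.19 among the genes tested. Bulk-HSCs held the most Tgfbr3 at both ages, with means of 242 ± 10.2 CPM (SD, n = 3) in young and 315 ± 6.67 CPM in aged cells. LT-HSCs and ST-HSCs averaged 201 and 208 CPM in young and 256 and 260 CPM in aged cells. Every bulk-HSC library lay above every LT-HSC and ST-HSC library of its age, although bulk-HSCs contain both fractions. No test compared bulk-HSCs with the other fractions at the same age, and the share of all genes with this pattern was not counted. The reason was not tested, and a difference between libraries that is not biological cannot be told apart.

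Skil, the SnoN corepressor, was scarcer and more variable. The young LT-HSC libraries measured 16.8, 18.1 and 37.0 CPM and the aged ones 37.5, 39.8 and 57.7 CPM. Young ST-HSCs held 16.9, 20.1 and 31.7 CPM, and aged ST-HSCs 27.6, 31.9 and 55.4 CPM. Young bulk-HSCs held 9.35, 20.5 and 33.5 CPM, and aged bulk-HSCs 36.3, 39.6 and 42.7 CPM. The ages did not overlap in LT-HSCs and bulk-HSCs, where the nearest young and aged libraries lay close together, and they overlapped in ST-HSCs. The log2 fold change over the 3 fractions was 0.85 ± 0.24 (SE), a factor of 1.81 (adjusted p = 0.0413). Taken singly, the fractions gave 0.91 ± 0.42 (LT-HSCs), 0.74 ± 0.42 (ST-HSCs) and 0.90 ± 0.42 (bulk-HSCs) (adjusted p = 0.552, 0.649 and 0.361). Single libraries moved these values: the ST-HSC value was 0.38 without aged replicate 1, and the bulk-HSC value was 0.56 without young replicate 1 and 1.40 without young replicate 3. The call is a narrow one. It remained in 4 of 18 fits that each left out 1 library (young LT-HSC replicate 2, young ST-HSC replicate 3, young bulk-HSC replicate 3 or aged ST-HSC replicate 3), and without any of the other 14 libraries the adjusted p lay between 0.0516 and 0.0997. With a term for the genes detected per library the log2 fold change was 0.72 and the adjusted p 0.556, while Tgfbr3 stayed called in each of these fits. Within an age, the correlation of log2(CPM + 1) of Skil with the number of detected genes was 0.15 over the 9 young and 0.47 over the 9 aged libraries, which differ also in fraction. Ski, the related corepressor, had a log2 fold change of -0.19 ± 0.091 over the 3 fractions (adjusted p = 0.273). Skil per kb was 0.0360 to 0.142 of Ski in young libraries and 0.126 to 0.250 in aged libraries, a ratio described here after its values were seen.

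**Figure D2:**
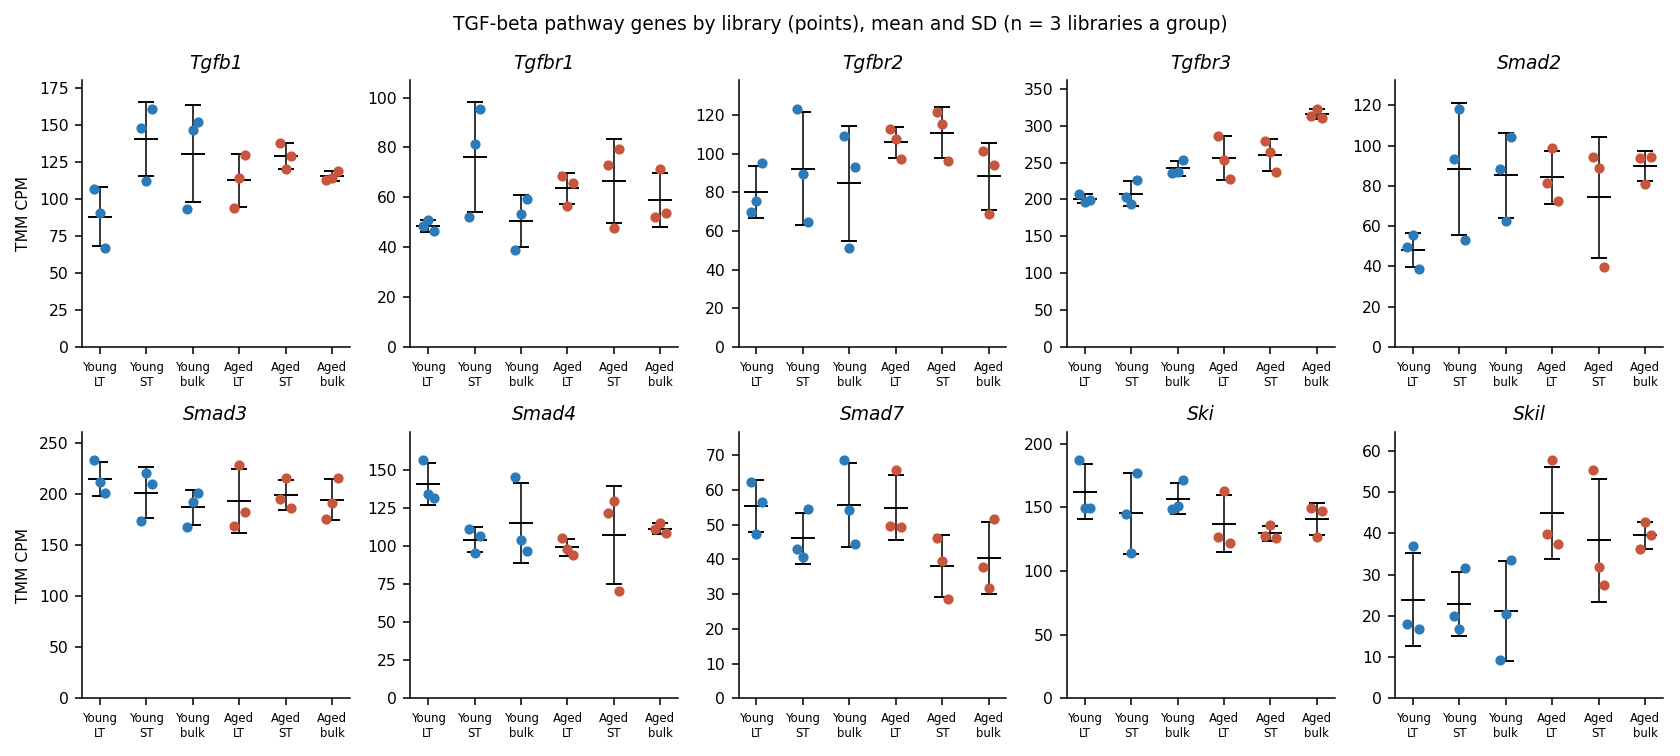
TMM-normalized CPM of the 10 genes in each library (points, young blue, aged red), with the mean and SD of each group (n = 3). The Tgfbr3 points of aged groups lie above those of the young group of the same fraction throughout, and the lowest Smad2 mean is that of young LT-HSCs (48.0 CPM).

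For the other 8 members no change with age was called over the 3 fractions. The signalling receptors had log2 fold changes of 0.14 ± 0.14 (Tgfbr1, adjusted p = 0.667) and 0.24 ± 0.15 (Tgfbr2, adjusted p = 0.405). The ligand Tgfb1 gave 0.02 ± 0.11 (adjusted p = 0.967), and its sign changed with the scaling to library size alone. Among the Smads the values were 0.21 ± 0.17 for Smad2, -0.04 ± 0.078 for Smad3, -0.17 ± 0.11 for Smad4 and -0.25 ± 0.14 for Smad7, with adjusted p between 0.348 and 0.879. Smad3 was the most even of the Smads, with group means between 187 and 215 CPM.

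Within LT-HSCs alone, 0 of 10 members passed the adjusted threshold in edgeR (0.445% of all genes did), as in DESeq2 and limma-voom. At an unadjusted p under 0.05 there were 4, namely Tgfbr3, Smad2, Smad4 and Skil, against 8.81% of all genes. Smad2, a receptor-activated Smad, measured 38.8, 49.9 and 55.4 CPM in young and 72.5, 81.6 and 98.7 CPM in aged LT-HSCs, with no overlap (log2 fold change 0.81 ± 0.30, adjusted p = 0.391). Smad4, the common partner, measured 131, 134 and 156 CPM in young and 94.2, 97.8 and 105 CPM in aged LT-HSCs, again with no overlap and in the opposite direction (-0.51 ± 0.19, adjusted p = 0.404). Tgfbr1 ran from 46.4 to 50.8 CPM in young and from 56.5 to 68.6 CPM in aged LT-HSCs, and Tgfbr2 from 70.0 to 95.3 and from 97.3 to 113 CPM. Altogether 5 members were higher and 1 was lower in aged LT-HSCs without overlap between the ages, where 16.1% of all genes showed no overlap. With a term for the genes detected per library, which overlapped between young and aged LT-HSCs, the Smad2 log2 fold change was 0.40, and those of Smad4, Tgfbr3 and Skil were -0.49, 0.41 and 0.81.

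In ST-HSCs 0 of 10 members were called by edgeR, DESeq2 or limma-voom (0.851% of all genes in edgeR), and 1, Tgfbr3, had an unadjusted p under 0.05 (9.67% of all genes). Tgfbr3 was also the single member without overlap between the ages, against 17.8% of all genes. In bulk-HSCs 0 of 10 were called by edgeR (1.98% of all genes) and limma-voom, and DESeq2 called 1, Tgfbr3, with a log2 fold change of 0.37 (adjusted p = 0.0139), among 5.79% of all genes that it called. Tgfbr3 and Skil had an unadjusted p under 0.05 there (13.3% of all genes) and were the 2 members whose ages did not overlap (22.7% of all genes). Smad7, the inhibitory Smad, measured 44.4, 54.2 and 68.5 CPM in young and 31.7, 37.8 and 51.7 CPM in aged bulk-HSCs, which overlap (log2 fold change -0.47 ± 0.24, adjusted p = 0.441).

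**Figure D3:**
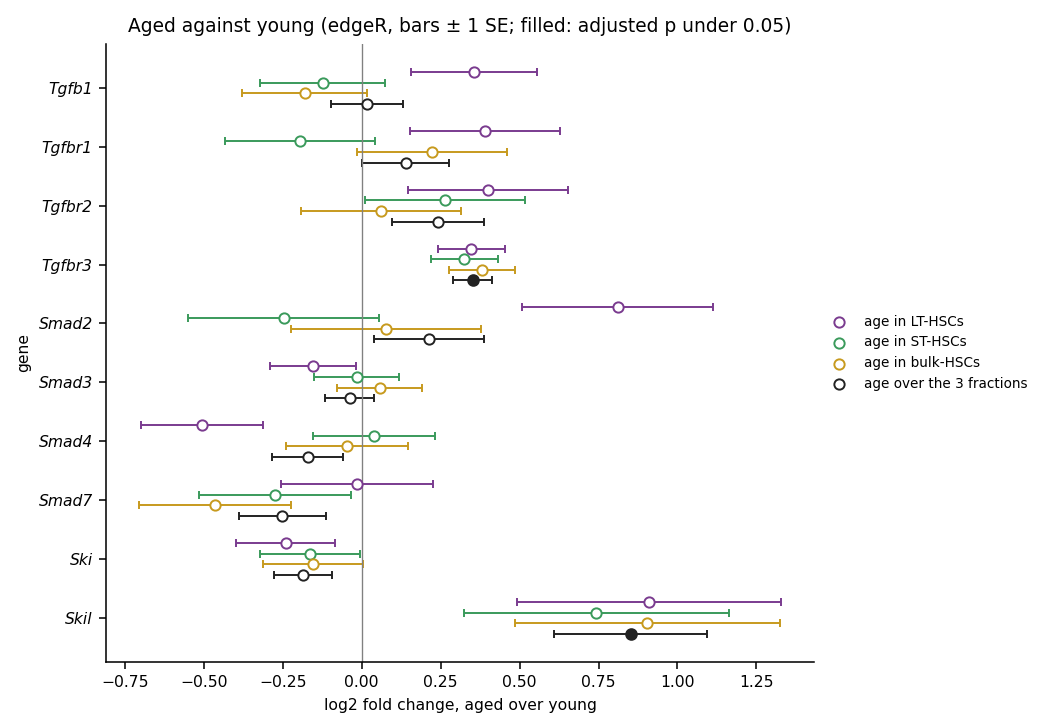
log2 fold change of aged over young for each gene, by fraction and over the 3 fractions (edgeR, bars ± 1 SE, filled where the adjusted p was under 0.05). Tgfbr3 lies between 0.33 and 0.38 in every fraction, and Smad2 ranges from -0.25 in ST-HSCs to 0.81 in LT-HSCs.

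Whether the effect of age differs between fractions was tested as an interaction. For LT-HSCs against ST-HSCs, 0 of 10 members were called by edgeR, DESeq2 or limma-voom (0.0% of all genes in edgeR), and 1, Smad2, had an unadjusted p under 0.05 (3.92% of all genes). Smad2 measured 39.8, 89.2 and 94.3 CPM in aged and 53.4, 93.3 and 118 CPM in young ST-HSCs, wide and overlapping spreads. Its difference of log2 fold changes was 1.06 ± 0.43 (adjusted p = 1.0). For LT-HSCs against bulk-HSCs and ST-HSCs against bulk-HSCs, 0 members were called by edgeR, DESeq2 or limma-voom, and 0 had an unadjusted p under 0.05 in edgeR. The shares of all genes called were 0.00781% and 0.0625%, and those with an unadjusted p under 0.05 were 5.82% and 5.78%. The different values of Smad2, Smad4 and Tgfb1 in LT-HSCs and other fractions are thus not shown to differ between fractions.

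The second question was whether the reporter-defined fractions differ at the same age. In young mice 0 of 10 members were called between LT-HSCs and ST-HSCs by edgeR (0.429% of all genes) or limma-voom, while DESeq2 called 1, Tgfb1, with a log2 fold change of -0.67 (adjusted p = 0.0307), among 3.02% of all genes that it called. At an unadjusted p under 0.05 there were 4, Tgfb1, Tgfbr1, Smad2 and Smad4, against 10.4% of all genes. Tgfb1, the ligand, measured 67.0, 90.2 and 107 CPM in young LT-HSCs and 112, 148 and 161 CPM in young ST-HSCs (edgeR log2 fold change -0.68 ± 0.20, adjusted p = 0.176). Its type I receptor Tgfbr1 was likewise lower in LT-HSCs, at 46.4, 48.4 and 50.8 CPM against 52.1, 81.2 and 95.5 CPM (-0.65 ± 0.24, adjusted p = 0.315). Smad4 lay the other way, with 131 to 156 CPM in young LT-HSCs and 95.2 to 111 CPM in young ST-HSCs (0.43 ± 0.19, adjusted p = 0.442). These were the 3 members without overlap between the young fractions, where 12.1% of all genes had none. Smad2 overlapped (-0.88 ± 0.30, adjusted p = 0.276). Flt3, which marks cells leaving the HSC gate, was at 9.16 to 22.3 CPM in young LT-HSCs and 49.98 to 89.3 CPM in young ST-HSCs, and its part in these values was not tested.

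In aged mice 0 of 10 members were called between LT-HSCs and ST-HSCs by edgeR (0.00781% of all genes), DESeq2 or limma-voom. Smad7 had an unadjusted p under 0.05 (3.41% of all genes). It measured 49.3, 49.5 and 65.6 CPM in aged LT-HSCs and 28.6, 39.4 and 46.2 CPM in aged ST-HSCs (0.53 ± 0.24, adjusted p = 1.0). For Tgfb1 and Tgfbr1 the aged log2 fold changes were -0.20 ± 0.20 and -0.07 ± 0.24.

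**Figure D4:**
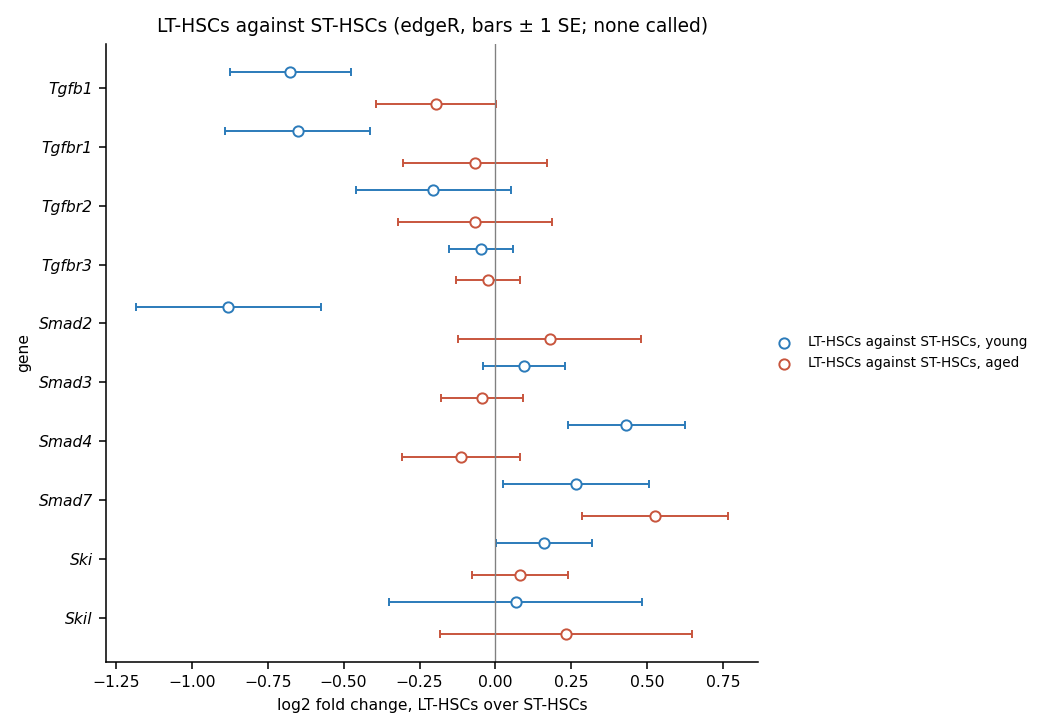
Difference between LT-HSCs and ST-HSCs (log2, LT-HSCs over ST-HSCs) for each gene in young and aged mice (edgeR, bars ± 1 SE). None was called. Young Tgfb1, Tgfbr1 and Smad2 lie at -0.68, -0.65 and -0.88, and their aged values lie at -0.20, -0.07 and 0.18.

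The 6 groups were also ordered by mean level. For 8 members each group's range overlapped that of the next group in the order of means. The exceptions were Tgfb1, where aged ST-HSCs lay above aged bulk-HSCs, and Tgfbr3, where aged bulk-HSCs lay above aged ST-HSCs and young bulk-HSCs above young ST-HSCs. The Tgfb1 gap was narrow, from 118.9 CPM in the highest aged bulk-HSC library to 120.5 CPM in the lowest aged ST-HSC library. The share of all genes with such gaps was not counted. The ratio of the highest to the lowest group mean was largest for Skil (2.13) and Smad2 (1.87) and smallest for Smad3 (1.15) and Ski (1.25). Within-group spread differed also with age: the SD of log2(CPM + 1) of Skil was 0.67 in young and 0.36 in aged groups, and that of Tgfb1 0.34 and 0.15. Tgfbr2 (0.44 and 0.21), Ski (0.22 and 0.15) and Tgfbr1 (0.32 and 0.28) were also wider in young groups. The reverse held for Tgfbr3 (0.079 and 0.12), Smad3 (0.15 and 0.17), Smad4 (0.21 and 0.28) and Smad7 (0.25 and 0.31), and Smad2 was even (0.43 and 0.42). Over all genes tested the median SD was 0.49 in young and 0.28 in aged groups.

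Smad2, Smad4 and Smad7 lie on chromosome 18, apart from Smad3. The balance of Smad2 and Smad3 within a library was described after these values were seen, with no test. Per kb, Smad2 was 0.122 to 0.165 of Smad3 in young LT-HSCs and 0.251 to 0.305 in aged LT-HSCs, with no overlap. In young ST-HSCs the ratio spanned 0.160 to 0.339 and in young bulk-HSCs 0.206 to 0.334. Aged ST-HSCs spanned 0.135 to 0.305 and aged bulk-HSCs 0.267 to 0.338. A low ratio was therefore shared by the 3 young LT-HSC libraries and single ST-HSC libraries of each age. The receptor ratio was wider: Tgfbr1 per kb was 0.445 to 1.85 of Tgfbr2 in young and 0.516 to 1.29 in aged libraries.

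**Figure D5:**
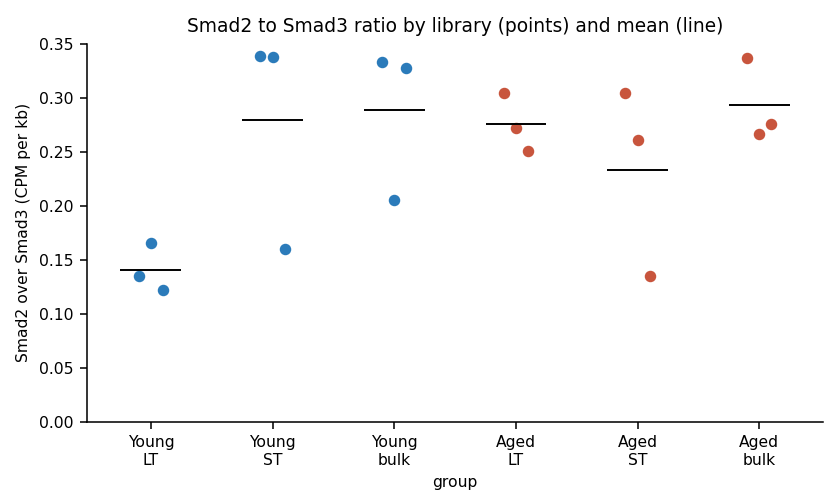
Ratio of Smad2 to Smad3, both in CPM per kb of exon, in each library (points) with the mean of each group (line). Young LT-HSCs sit between 0.122 and 0.165 and aged LT-HSCs between 0.251 and 0.305.

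Of 85 further genes of the pathway listed by role, 62 passed the expression filter. Over the 3 fractions 9 of the 62 rose with age and 0 fell (edgeR, adjusted p under 0.05), against 6.75% of all genes called, and their median log2 fold change was 0.10 against 0.04 over all genes tested. These lists were written with earlier results of the data known. The fewer genes detected in young libraries stand beside each rise named here, and their part was not tested.

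Among ligands and their activators, 2 of 10 tested rose over the 3 fractions, where 4.34% of all genes tested did. Ltbp4, which binds latent TGF-beta in the matrix, rose in bulk-HSCs (10.6 to 26.3 CPM in young, 45.1 to 54.2 CPM in aged, log2 fold change 1.52 ± 0.37, adjusted p = 0.0375) and over the 3 fractions (1.02 ± 0.21, adjusted p = 0.00546). It was not called in LT-HSCs or ST-HSCs alone (adjusted p = 0.393 and 0.707). Its means were higher in LT-HSCs than in ST-HSCs, at 29.0 against 13.2 CPM in young and 56.2 against 19.8 CPM in aged cells. In bulk-HSCs its rise and the changed mix of fractions cannot be told apart. Bmp4, a ligand of the BMP branch, rose over the 3 fractions (1.78 ± 0.52, adjusted p = 0.0474) and was highest in LT-HSCs of either age, with means of 14.7 ± 4.24 CPM in young and 27.4 ± 4.58 CPM in aged cells. Transcripts of the related ligand genes Tgfb2, Bmp6 and Mstn had 0 counts in 16, 18 and 18 of the 18 libraries.

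Of the other receptors 1 of 7 tested rose over the 3 fractions (4.34% of all genes tested). Bmpr1a, a type I receptor for BMPs, ranged from 0 to 19.2 CPM in young and from 47.3 to 100.2 CPM in aged libraries (3.26 ± 0.68, adjusted p = 0.00661). Its partner Bmpr2 gave -0.14 ± 0.079 (adjusted p = 0.367). Of the other Smads 0 of 3 tested were called in edgeR and 2 had an unadjusted p under 0.05 (19.7% of all genes). These were the BMP-branch Smads Smad1 (0.39 ± 0.13, adjusted p = 0.0838) and Smad5 (0.75 ± 0.27, adjusted p = 0.116), while the inhibitory Smad6 gave -0.53 ± 0.37 (adjusted p = 0.492).

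Regulators of receptors and Smads gave 0 calls among 18 tested in edgeR and 3 at an unadjusted p under 0.05, against 19.7% of all genes. The smallest p belonged to the kinase gene Map3k7 (0.51 ± 0.16, adjusted p = 0.0663) and the ubiquitin ligase gene Traf6 (0.70 ± 0.25, adjusted p = 0.110). Among nuclear partners 1 of 9 rose over the 3 fractions (4.34% of all genes tested). It was Trim33 (0.44 ± 0.097, adjusted p = 0.00976), a ubiquitin ligase that binds Smads. The corepressor Ncor1 gave -0.18 ± 0.060 (adjusted p = 0.0859).

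Of the genes reported as TGF-beta targets 5 of 15 tested rose with age over the 3 fractions, where 4.34% of all genes tested did. The median log2 fold change of the 15 was 0.38, against 0.04 over all genes tested. Tsc22d1, a leucine zipper gene induced by TGF-beta, was at 231 to 295.5 CPM in young and 366 to 479.9 CPM in aged LT-HSCs (0.70 ± 0.13, adjusted p = 0.0197). It rose as well in ST-HSCs (0.59 ± 0.13, adjusted p = 0.0390) and over the 3 fractions (0.54 ± 0.075, adjusted p = 0.000176), and was not called in bulk-HSCs (0.34 ± 0.13, adjusted p = 0.237). Junb, a subunit of AP-1, rose by a log2 fold change of 0.92 ± 0.19 (adjusted p = 0.00495). Id2, an inhibitor of helix-loop-helix factors, rose by 2.05 ± 0.50 (adjusted p = 0.0168), from 0 to 21.1 CPM in young to 12.9 to 40.4 CPM in aged libraries, so the ages overlapped. Cdkn1a, a cell-cycle inhibitor, was called (adjusted p = 0.0321) at low levels: it had 0 counts in all 3 young bulk-HSC libraries, reached 7.15 CPM in other young libraries and measured 3.50 to 7.47 CPM in aged ones. Klf10, named after its values were seen, gave 0.38 ± 0.094 (adjusted p = 0.0184). Within single fractions edgeR called none of Bmpr1a, Trim33, Junb, Id2, Cdkn1a and Klf10. Between LT-HSCs and ST-HSCs 0 of the 62 genes were called at either age in edgeR, with 13 in young and 4 in aged mice at an unadjusted p under 0.05, where 10.4% and 3.41% of all genes passed.

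The genes whose log2(CPM + 1) followed a member most closely over the 18 libraries are given as a description, since these libraries share age, fraction and depth. For Tgfbr3 they were Bcl2 (Pearson r = 0.822, Spearman rho = 0.787), Cd24a (0.816, 0.781) and Spred1 (0.794, 0.789), and without the 2 libraries farthest from the Tgfbr3 median r was 0.750, 0.794 and 0.762. For Skil they were Rnf146 (r = 0.892), Gipc3 (0.826) and Pcdhgc4 (0.824), and for Tgfb1 Baz1a (0.887), Zbed4 (0.868) and Def6 (0.834). Tgfbr1 was closest to Atp2a2 (0.828), Rwdd2a (0.770) and 4931428F04Rik (0.750), and Tgfbr2 to Znrf1 (0.871), Cutc (0.849) and Vta1 (0.839). Among the Smads, Smad2 was closest to Zfp703 (0.795), Ptrhd1 (0.778) and Ankle2 (0.756), Smad3 to AI846148 (0.770), Klhl28 (0.711) and Zscan26 (0.711), Smad4 to Arhgef5 (0.771), Ephb4 (0.758) and Igf1 (0.739), and Smad7 to Slc22a15 (0.824), Notch3 (0.801) and Pde3b (0.771). Ski was closest to Nit1 (0.731), As3mt (0.727) and Slc25a51 (0.723). For members other than Tgfbr3, r without the 2 farthest libraries ran from 0.503 (Smad4 with Igf1) to 0.852 (Tgfb1 with Baz1a). It was lower than over all 18 libraries for every pair except Ski with As3mt (0.756). Between members the highest r was 0.584 (Tgfbr3 with Skil) and the lowest -0.637 (Tgfbr1 with Smad4).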

How the data were processed

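The authors sorted LT-HSCs, ST-HSCs and bulk-HSCs from young and aged mice, depleted ribosomal RNA and sequenced 18 paired-end libraries. The reads were aligned by the authors to mm10 with HISAT2 and assembled with StringTie 1.3.4d, with SAMtools 1.7 also named. The deposited values are whole-number counts per gene symbol without normalization; the annotation and the step to whole counts are not given in the sources used here. Samples were grouped by their labels.

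The main test was edgeR 4.0.16 (R 4.3.3, with limma 3.58.1). TMM factors ranged from 0.951 to 1.03, and the 12808 genes averaging 1 or more TMM-normalized CPM were tested. A quasi-likelihood model of 6 group means gave 9 contrasts, with Benjamini-Hochberg adjustment over all genes tested. Each standard error is the absolute log2 fold change over the square root of F. The script was tested on simulated data. Alternatives were DESeq2 1.42.0, limma-voom with quality weights, other scalings and filters, a replicate block, a term for the genes detected per library, the compared groups alone and each library left out. Exon lengths came from GENCODE M21.

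All 10 members were named, with the pathway genes called in any contrast (at most 4 per contrast by size), the 2 with the smallest p per list for age over the 3 fractions, and the 3 most correlated genes per member. Members and lists were chosen with earlier results of these data known. At these depths 3 counts equal 0.131 to 0.182 CPM, which covers counting error only.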

Additional observations from a re-analysis of the deposited data

How the results depend on the processing

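The 2 members called for age over the 3 fractions were 1 with a term for the genes detected per library, and 1 to 2 when each library was left out in turn, Skil being the one lost and Tgfbr3 staying called in all 18 such fits. DESeq2 gave 1 called member for age in bulk-HSCs (Tgfbr3) and 1 for LT-HSCs against ST-HSCs in young mice (Tgfb1), where edgeR gave 0. The other counts of called members were the same under every alternative run. Of 24 fold changes followed over the alternatives, 22 never changed sign. Tgfb1 over the 3 fractions was -0.0096 with library size alone and ranged from -0.048 to 0.071 when single libraries were left out, being negative without young LT-HSC replicate 3 (-0.036), young ST-HSC replicate 2 (-0.028), young bulk-HSC replicate 1 (-0.048) or aged LT-HSC replicate 3 (-0.020). Smad2 over the 3 fractions was -0.22 with a term for the genes detected per library, and the cause was not tested. With the replicate block, 2 members were called for age over the 3 fractions, as without it. Deviations of libraries with equal numbers correlated between -0.0491 and 0.124 over 45 pairs, and those with unequal numbers between -0.112 and 0.0728 over 90 pairs. The equal-number pairs include young with aged libraries, which cannot share an animal, and the replicate block also spans both ages. Neither can decide whether libraries of an age share animals, and the libraries were treated as independent. The alternatives for the Smad2 difference between fractions were added after its values were seen. Leaving out a library leaves 2 in its group, whose spread is pooled with the others.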
